A study of Mus musculus with 360 samples.

Results

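The 9 genes described here, H19, Dlk1, Meg3, Peg3, Mest, Cdkn1c, Plagl1, Ndn and Grb10, are imprinted genes that were chosen by name from the 24015 genes listed in the tables. All 9 are listed, and each was read in at least 62 of the 325 cells analyzed. Reads of each gene were counted in single CD51+;CD200+ cells, the skeletal stem/progenitor cells that the study sorted from wild-type CD-1 mice at postnatal day 3. The sort left out cells with CD105, 6C3, Thy1.2, Thy1.1, Tie2, Ter119 or CD45, which mark stromal, blood and endothelial cells among others. The cells came from the posterior frontal suture (PF), which fuses in early life in the mouse, from the sagittal (SAG) and coronal (COR) sutures, which remain patent, and from the growth plate (GP) of the tibia, the cartilage that lengthens a long bone. The suture tissue took in the bone fronts, the mesenchyme, the dura and the periosteum. Each tissue was sequenced as 2 plates of sorted cells pooled from many mice, and no cell was assigned to an animal. Each tissue therefore counts as 1 sample, tissues were compared without p-values or standard errors, and the 2 plates give the only spread.

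In an imprinted gene only the copy from the mother or only the copy from the father is active, because the parental germ lines leave different DNA methylation marks at control regions. Several imprinted genes control how fast a fetus or newborn grows, and many of them are highly expressed before birth and silenced in the weeks after it. Genes active on the maternal copy tend to restrain growth, and genes active on the paternal copy tend to promote it. Of the 9 genes, H19, Meg3, Cdkn1c and Grb10 are known as maternally expressed and Dlk1, Peg3, Mest, Plagl1 and Ndn as paternally expressed. Counts per gene do not tell the alleles apart, so the parental copy that was read is not known here.

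By role, Cdkn1c encodes the cyclin-dependent kinase inhibitor p57, which holds cells out of division. Grb10 encodes an adaptor protein that binds and dampens the insulin and IGF1 receptors. Dlk1 encodes a transmembrane relative of the Notch ligands that keeps preadipocytes and other progenitors undifferentiated. Plagl1 and Peg3 encode zinc finger proteins of the nucleus, and Ndn encodes necdin, a MAGE family protein that restrains growth of neurons and other cells. Mest encodes an enzyme-like protein with an alpha/beta hydrolase fold. H19 and Meg3 make long RNAs that are not translated.

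The genes lie on 5 chromosomes of the mm9 genome, the build that the authors used. In the GENCODE annotation of that build, H19 lies at chr7:149761434-149764048 on the minus strand, 72.6 kb from the growth factor gene Igf2. Cdkn1c lies at chr7:150644255-150646955, Ndn at chr7:69493163-69494814 and Peg3 at chr7:6656603-6683132. Dlk1 lies at chr12:110691033-110701546 and Meg3 at chr12:110779211-110809936, both on the plus strand and 77.7 kb apart. Mest lies at chr6:30673547-30698457, Plagl1 at chr10:12810497-12851500 and Grb10 at chr11:11830511-11938686. An exon of H19 holds the miRNA gene Mir675, an intron of Mest holds Mir335, and the end of Mest overlaps exons of Copg2 on the opposite strand. Exons of Meg3 hold Mir770 and Mir1906-1. Whether the counting used strand was not stated, so reads in these overlaps may have been counted for either gene or for neither.

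The host transcripts H19 and Mest are known for the miRNAs they carry, which regulate other mRNAs by base pairing of their seed. Their mature sequences from RefSeq (GRCm38.p6) are shown with the seed, bases 2 to 8, in capitals, because the tables count the hosts and not the mature miRNAs. No 2 of the 4 seeds are the same.
miR-675-5p: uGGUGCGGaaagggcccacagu
miR-675-3p: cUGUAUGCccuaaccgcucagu
miR-335-5p: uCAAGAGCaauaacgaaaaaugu
miR-335-3p: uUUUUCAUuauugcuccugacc
Over all 325 cells the tables gave 10 reads to the Mir335 gene and 0 to Mir675.

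Methylation of CG dinucleotides is the mark on which imprinting rests, and promoters of the 5 genes whose level differed between tissues below are shown with each CG in capitals. Each spans 250 bases before to 50 after a transcript start in RefSeq (GRCm38.p6). For Mest and Meg3, which have several starts in the table, the one shown is the first listed with the most CGs.
Peg3, chr7:6730370-6730669, minus strand: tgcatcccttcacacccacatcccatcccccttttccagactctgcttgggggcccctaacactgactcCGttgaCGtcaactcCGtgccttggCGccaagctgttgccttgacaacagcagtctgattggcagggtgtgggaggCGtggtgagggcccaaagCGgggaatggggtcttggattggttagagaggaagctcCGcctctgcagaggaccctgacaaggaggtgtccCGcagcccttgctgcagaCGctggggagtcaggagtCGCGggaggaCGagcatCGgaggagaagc
Plagl1, chr10:13090582-13090881, plus strand: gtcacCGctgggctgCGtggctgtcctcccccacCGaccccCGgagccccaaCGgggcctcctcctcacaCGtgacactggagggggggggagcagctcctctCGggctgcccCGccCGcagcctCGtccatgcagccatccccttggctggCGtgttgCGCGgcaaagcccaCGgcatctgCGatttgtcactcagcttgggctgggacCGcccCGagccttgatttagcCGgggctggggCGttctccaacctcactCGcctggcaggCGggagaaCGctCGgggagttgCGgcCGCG
Mest, chr6:30737800-30738099, plus strand: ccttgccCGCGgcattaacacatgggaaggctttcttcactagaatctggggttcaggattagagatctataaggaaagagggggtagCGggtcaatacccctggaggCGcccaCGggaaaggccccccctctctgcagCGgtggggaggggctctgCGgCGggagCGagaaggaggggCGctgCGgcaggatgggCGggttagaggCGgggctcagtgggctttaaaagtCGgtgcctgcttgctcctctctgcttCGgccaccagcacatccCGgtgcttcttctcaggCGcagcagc
Dlk1, chr12:109452573-109452872, plus strand: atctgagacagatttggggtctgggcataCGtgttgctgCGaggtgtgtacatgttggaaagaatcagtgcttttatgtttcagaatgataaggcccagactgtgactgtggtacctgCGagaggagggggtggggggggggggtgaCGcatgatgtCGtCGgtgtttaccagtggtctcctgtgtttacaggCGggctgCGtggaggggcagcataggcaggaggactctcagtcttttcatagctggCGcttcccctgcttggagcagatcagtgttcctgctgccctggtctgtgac
Meg3, chr12:109540746-109541045, plus strand: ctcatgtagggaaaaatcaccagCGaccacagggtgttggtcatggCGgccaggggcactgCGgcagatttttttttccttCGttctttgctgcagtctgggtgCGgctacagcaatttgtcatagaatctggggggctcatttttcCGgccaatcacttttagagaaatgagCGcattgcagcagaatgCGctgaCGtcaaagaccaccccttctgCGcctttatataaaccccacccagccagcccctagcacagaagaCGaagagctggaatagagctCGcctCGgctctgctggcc
The Plagl1 promoter holds 26 CGs, that of Mest 17, those of Peg3 and Meg3 13 each and that of Dlk1 9. The median of the 32851 promoters of this length is 7, and 83.1% of them hold fewer CGs than the Plagl1 promoter. Of the 11 promoters listed for 7 of the genes, 10 hold more than this median. The highest count was 45, at a start of Grb10. The 8-base motif GGGGCCCC, which reads the same on both strands, was found in the Peg3 promoter and in 1.08% of all promoters. These are counts of letters, and methylation was not measured.

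The cells analyzed were those with at least 500 genes and 10000 reads, 325 of 360. They numbered 87 for PF, 86 for SAG, 74 for COR and 78 for GP, and plate 1 held 34, 30, 16 and 20 of these in the same order. Levels are reads summed over the cells of a tissue or plate per 1000000 reads (CPM), with the ribosomal RNA gene Rn45s left out of the total. SAG plate 2 stood apart from the other 7. Rn45s took 86.8% of its reads against 20.2% to 30.96% on the others, and its cells had a median of 875 genes against 2112 to 3867. Levels and calls of the genes in SAG are therefore given with and without that plate. Summed reads other than Rn45s were 17212041 for SAG, 28471545 for GP, 30299518 for PF and 32037308 for COR. Per tissue, reads were therefore few only for Dlk1 (126, 178, 26 and 658 reads in PF, SAG, COR and GP). Reads were counted after PCR, so their number does not give the spread between cells. On COR plate 1, Meg3 had 35 reads in 2 cells, 85.7% of them from 1 cell. On SAG plate 2, Ndn had 98 reads in 2 cells, 93.9% of them from 1 cell. Of 14 genes that mark hindlimb position, at least 1 was read in 59 of 78 GP cells, in 1 PF cell and in 0 of 86 SAG and 0 of 74 COR cells, which allows shares of up to 3.49% and 4.05% at 3 cells. Of the sort markers, Itgav (CD51) was read in 18.6% of SAG to 60.8% of COR cells and Cd200 in 33.7% of SAG to 55.4% of COR cells. On SAG plate 1 alone they were read in 43.3% and 66.7% of cells. The chondrocyte markers, which should mark a growth plate, summed to 306 and 4192 CPM on the GP plates and to 18653 and 11882 CPM on the SAG plates, so they were higher in SAG. Of 5 endothelial markers, Pecam1, Emcn and Tie1 were at 0 in all 4 tissues, and the list summed to 0 CPM in GP, 2.38 in PF, 6.90 in COR and 16.4 in SAG, where the reads were of Kdr. Limits and intervals here and below cover counting error of reads and cells only.

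Per kilobase of exon, which allows genes to be compared with each other, Cdkn1c had the highest level of the 9 genes in PF, COR and GP, and Dlk1 and Meg3 had the lowest levels in all 4 tissues. In PF, Cdkn1c stood at 811 CPM per kb, H19 at 427, Mest at 182, Ndn at 141, Grb10 at 66.4, Plagl1 at 42.2, Peg3 at 32.97, Meg3 at 6.27 and Dlk1 at 0.735. The plates of neighboring genes in this order overlapped only for Plagl1 and Peg3, at 34.7 and 44.1 against 22.3 and 35.6 CPM per kb. In GP the order began with Cdkn1c at 1059 and Mest at 842 CPM per kb, and their plates came close but did not overlap, with 1198 and 1029 against 1019.6 and 804. In SAG, Peg3 was highest at 700 CPM per kb, which came from plate 2, since its plates stood at 48.8 and 1133. The exon union of Meg3 is 18089 bases, which counts every annotated long form and lowers its value per kb.

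**Figure D1:**
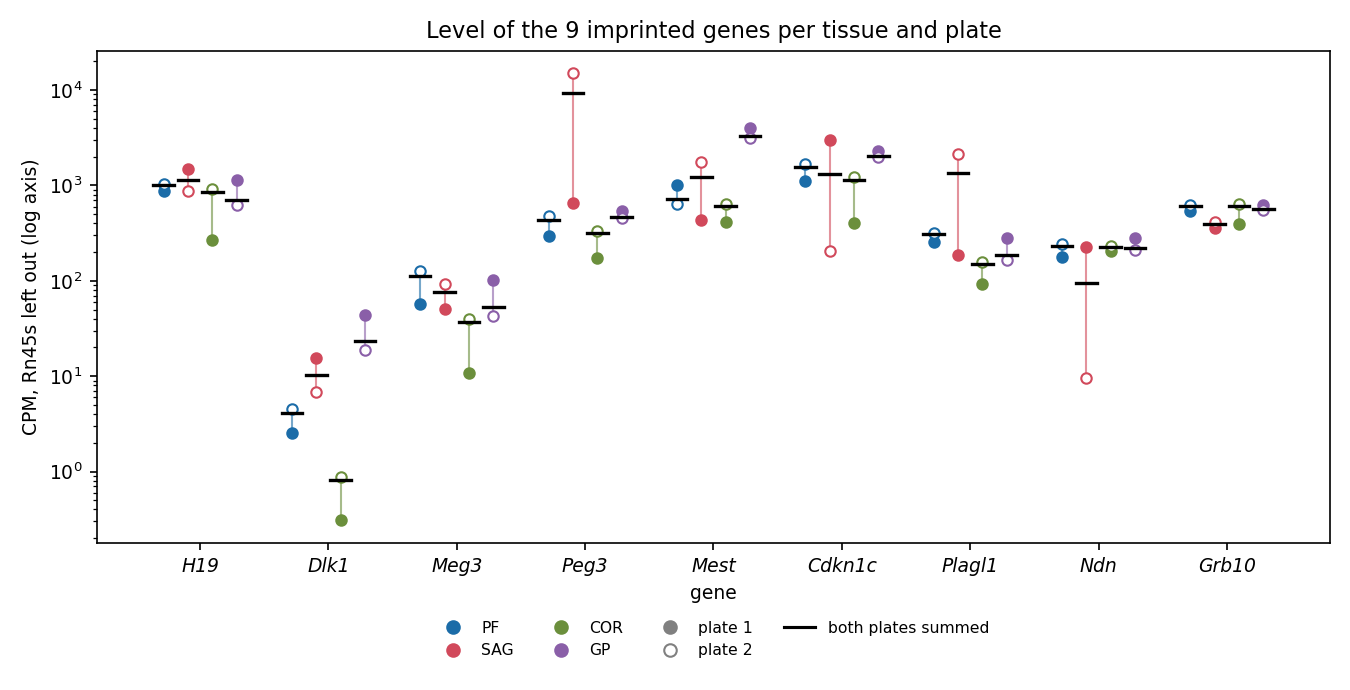
Level of each gene in CPM (vertical log axis, Rn45s left out) in PF, SAG, COR and GP, with plate 1 as filled and plate 2 as open circles joined by a line and both plates summed as a black bar. Mest and Dlk1 sit highest in GP on both plates, and the SAG plates lie far apart for Peg3 (649.7 and 15081 CPM), Plagl1, Cdkn1c and Ndn.

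A gene was called different between 2 tissues when their summed levels differed at least 2-fold, on the scale log2((CPM+1)/(CPM+1)), and each of the 4 plate-against-plate ratios pointed the same way. The share of all 10686 genes with at least 10 CPM in some tissue that met this rule is given beside each count. All 9 genes were among those, Dlk1 only through SAG and GP, and that filter lets a gene in through the tissue where it is high.

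With both plates used, the growth plate differed from the sutures in 2 genes, Mest and Dlk1, which were higher there than in each of the 3 sutures. Of the 9 genes, 2 were higher in GP than in PF (8.61% of all genes), 2 were higher than in SAG (18.3%) and 2 were higher than in COR (7.02%). No gene of the 9 was higher in PF than in GP (7.56%) or in COR than in GP (6.39%), and 1, Peg3, was higher in SAG than in GP (12.4%). The counts between GP and SAG, 2 of 9 and 1 of 9, are near the shares of all genes. Without SAG plate 2, only Mest was higher in GP than in SAG (17%). The median log2 ratio of the 9 genes was 0.07 for PF over GP and -0.53 for COR over GP, beside 0.09 and 0.06 over all genes tested.

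Mest was read at 4014 CPM on GP plate 1 and 3167 CPM on GP plate 2. The suture plates were at 1005 and 645.7 CPM in PF, 436 and 1761 in SAG and 418 and 635 in COR. Both GP plates were above all 6 suture plates. The log2 ratio of PF to GP was -2.21 (plate comparisons from -2.63 to -1.65), that of COR to GP -2.43 (-3.26 to -2.32) and that of SAG to GP -1.43 (-3.20 to -0.85), or -2.92 without SAG plate 2. The share of cells with a read of Mest differed less than the level, at 79.5% of GP cells (62 of 78, exact 95% binomial interval 68.8% to 87.8%), 63.2% for PF (52.2% to 73.3%), 72.1% for SAG (61.4% to 81.2%) and 68.9% for COR (57.1% to 79.2%). Among cells with a read, the median level was 2815 CPM in GP against 949.8 in PF, 766 in COR and 1059.5 in SAG, where it was 330.2 CPM on plate 1 and 1679 CPM on plate 2. The intervals of the 4 shares overlapped, but they cover counting of cells only. By plate the share was 80% and 79.3% in GP, above every suture plate. It was 64.7% and 62.3% in PF, 70% and 73.2% in SAG and 56.25% and 72.4% in COR. In GP both the share of cells and the level within cells with a read were therefore higher.

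Dlk1 was read in 31 of 78 GP cells (39.7%, interval 28.8% to 51.5%), 14 of 87 PF cells (16.1%, 9.09% to 25.5%), 12 of 86 for SAG (13.95%, 7.42% to 23.1%) and 5 of 74 for COR (6.76%, 2.23% to 15.1%). The GP interval lies above those of PF, of COR and of SAG with both plates. On SAG plate 1 alone Dlk1 was read in 9 of 30 cells (30%, 14.7% to 49.4%), an interval that covers the GP share, and on plate 2 in 5.36%. Thinned to 100000 reads per cell, the shares among cells that reached this depth were 37.5%, 12.7%, 11.3% and 3.20%. Its level was 44.1 and 18.7 CPM on the GP plates, 2.54 and 4.55 in PF, 15.6 and 6.87 in SAG and 0.309 and 0.868 in COR. The log2 ratio of PF to GP was -2.22 (-3.67 to -1.83) and that of COR to GP -3.73 (-5.11 to -3.40). That of SAG to GP was -1.09 (-2.52 to -0.25), and without SAG plate 2 it was -0.54 and no longer called. Few cells carried the suture values. A single cell held 71.03% of the 107 Dlk1 reads of SAG plate 1, a single cell held 92.96% of the 71 reads of SAG plate 2, and COR plate 1 had 1 read.

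Cell type markers also differed between the tissues, but not all in the order of Mest and Dlk1. The 6 osteoblast markers summed to 34924 CPM in GP (1506 and 41941 on its plates). They stood at 35138.5 CPM in PF, 13703 in SAG and 55867.5 in COR. The 4 tenocyte markers summed to 2687 CPM in GP against 91.9 to 388 CPM in the sutures, and the 6 chondrocyte markers to 3518 CPM in GP, 14586 in SAG, 236 in PF and 158 in COR. The 5 fibroblast markers ran from 7210 CPM in SAG to 35893 in GP, with COR at 33694 CPM. The 5 pericyte or smooth muscle markers summed to 1968 and 1796 CPM on the GP plates and to 61.5 to 959 CPM on the suture plates, which do not overlap them. The part of these markers in the higher Mest and Dlk1 of GP was not tested. The 5 adipocyte markers summed to at most 6.01 CPM in a tissue. Adipoq and Cd36 were at 0 in all 4 tissues, Pparg was read in 2 cells, and the reads in GP were of Cebpa and Fabp4.

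Among the sutures, PF exceeded COR in 3 of the 9 genes, Dlk1, Meg3 and Plagl1 (5.27% of all genes), and COR exceeded PF in 0 (6.6%). The median log2 ratio of PF to COR was 0.44 over the 9 genes and 0.01 over all genes tested. Meg3 was read at 57.1 and 127 CPM on the PF plates and 10.8 and 39.5 CPM on the COR plates, a log2 ratio of 1.61 (0.52 to 3.44). It was read in 42.5% of PF cells (37 of 87) and 25.7% of COR cells (19 of 74), with intervals of 31.99% to 53.6% and 16.2% to 37.2% that overlap. On COR plate 1 only 2 of 16 cells had it. GP had the highest share of cells with Meg3, 55.1% (43 of 78, interval 43.4% to 66.4%), an interval that overlaps that of PF. On SAG plate 1 alone the share was 53.3%. The median in cells with Meg3 was 27.9 CPM in GP (68.4 and 21.9 on its plates) and 167 CPM in PF (142 and 211). In summed level the GP plates (102 and 42.9 CPM) overlapped those of PF. Plagl1 stood at 253 and 321 CPM in PF and 92.03 and 158 CPM in COR, a log2 ratio of 1.02 (0.67 to 1.79) that is just past the 2-fold limit. Among the alternative settings described below, its call was lost with TMM scaling, the stricter cell filter and a pseudocount of 10 CPM. Dlk1 had a log2 ratio of 1.51 (0.92 to 2.08) on 126 and 26 reads. Its levels, 4.16 CPM in PF and 0.81 in COR, were both below 10 CPM, and its call was lost with that pseudocount. The osteoblast markers stood at 74347 and 25627 CPM on the PF plates and 94112 and 51568 on the COR plates, which overlap. The fibroblast markers (22091 and 17543 CPM against 24802 and 34694) and the 10 cycling genes (219.6 and 171 CPM against 364 and 511) were lower on both PF plates than on both COR plates. Whether these bear on the 3 genes was not tested.

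SAG exceeded PF in 2 of the 9 genes, Dlk1 and Peg3 (12.4%), and PF exceeded SAG in 0 (16.9%). SAG exceeded COR in 4, Dlk1, Meg3, Peg3 and Plagl1 (12.5%), and COR exceeded SAG in 0 (18.9%). Dlk1 had a log2 ratio of -1.14 for PF over SAG (-2.23 to -0.50; -1.68 without plate 2) and 2.65 for SAG over COR (2.07 to 3.66; 3.19 without plate 2). Without the highest cell of each tissue the call of Dlk1 between PF and SAG was lost, and with Rn45s counted in the totals its ratio was 0.41. The ratio of Meg3 for SAG over COR was 1.03 (0.36 to 2.98), 0.47 without plate 2 and -0.81 with Rn45s counted. The counts changed when SAG was represented by plate 1 alone, with 2 plate comparisons per pair. SAG then exceeded PF in 1 gene, Dlk1 (16.5%), PF exceeded SAG in 1, Meg3 (16.7%), and SAG exceeded COR in 3, Dlk1, Peg3 and Cdkn1c (15.6%). COR exceeded SAG in 0 (16.2%), SAG exceeded GP in 1, H19 (16.7%), and GP exceeded SAG in 1, Mest (17%). The median log2 ratio of the 9 genes was -0.16 for PF over SAG, 1.00 for SAG over COR and -0.51 for SAG over GP, beside 0.30, -0.30 and -0.25 over all genes tested. Without plate 2 it was 0.05, 0.47 and 0.02, beside 0.02, -0.01 and 0.05. The log2 ratios behind the added calls were 1.14 for Meg3 in PF over SAG, 1.36 for Cdkn1c in SAG over COR and 1.08 for H19 in SAG over GP.

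Peg3 showed the widest gap between SAG plates together with Ndn. It was at 649.7 CPM on SAG plate 1 and 15081 CPM on plate 2, beside 297 and 473 in PF, 175 and 332 in COR and 537 and 459 in GP. Both SAG plates were above the other 6 plates, with plate 1 only a little above GP plate 1. The log2 ratio of SAG to COR was 4.88 (0.97 to 6.42) and 1.04 without plate 2, where it was still called. That of PF to SAG was -4.40 (-5.66 to -0.46), or -0.56 without plate 2, and that of SAG to GP was 4.30 (0.28 to 5.03), or 0.46 without plate 2, and neither was called then. Peg3 was also the gene read in most SAG cells, 80 of 86 (93.02%, 85.4% to 97.4%), with 96.7% on plate 1 and 91.1% on plate 2. In PF it was read in 63.2% of cells (52.2% to 73.3%), in COR in 75.7% (64.3% to 84.9%) and in GP in 73.1% (61.8% to 82.5%). The interval of SAG with both plates lies above those of the 3 other tissues, though only narrowly above that of COR. On SAG plate 1 alone the interval was 82.8% to 99.9%, which overlaps that of COR. No single cell carried the SAG level, since the highest held 8.93% of its 160374 reads.

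Plagl1 moved with Peg3 on SAG plate 2, at 188 CPM on plate 1 and 2145 CPM on plate 2, with 46.7% and 76.8% of cells. Without plate 2 its log2 ratio of SAG to COR went from 3.16 to 0.31. Cdkn1c and Ndn went the other way. Cdkn1c was at 2964 CPM on SAG plate 1 and 203 CPM on plate 2, with 90% and 26.8% of cells, and Ndn at 225 and 9.48 CPM, with 63.3% and 3.57% of cells (2 of 56). Mest was at 436 and 1761 CPM, Meg3 at 51.1 and 92.4, H19 at 1501 and 882 and Grb10 at 360 and 414. Over the 10686 genes, 27.9% were at least 2-fold higher on SAG plate 2 than on plate 1 and 47.5% were at least 2-fold lower. The plates also differed in markers, with osteoblast genes at 32496 and 1209 CPM and chondrocyte genes at 18653 and 11882 CPM. Depth other than Rn45s was nearly equal, with medians of 188426 and 184232 reads per cell. Genes read per cell were not, with medians of 2891.5 and 875, and thinning reads does not even these out. Thinned to 100000 reads, the shares were 92% and 24.4% for Cdkn1c and 69.3% and 3.61% for Ndn. The parts of the plate and of its cells in these gaps cannot be told apart.

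H19, Cdkn1c, Ndn and Grb10 were not called between any 2 tissues when both plates were used. H19 was at 1012 CPM in PF, 1130 in SAG, 846 for COR and 709 for GP, with plates from 266 (COR plate 1) to 1501 CPM (SAG plate 1), and it was read in 68.9% to 74.4% of the cells of each tissue, with 86.7% and 67.9% on the SAG plates. Of the 9 genes Grb10 was the most even. Its 8 plates ran from 360 to 637.5 CPM, and its tissues stood at 609, 393, 613 and 561 CPM (PF, SAG, COR, GP). It was read in 81.6% of PF, 90.5% of COR and 88.5% of GP cells but in 51.2% of SAG cells, where plate 1 had 76.7% and plate 2 37.5%. Ndn stood at 233, 95.5, 227.5 and 222 CPM, again in that order. Outside SAG plate 2, its plates lay between 179 and 282 CPM and did not separate the tissues. Cdkn1c was at 1565, 1306, 1150 and 2044 CPM in the same order, and both GP plates (2314 and 1988 CPM) were above those of PF (1102 and 1678) and COR (401 and 1235) by less than 2-fold in sum. With SAG plate 1 alone, Cdkn1c and H19 were the highest in SAG of the 4 tissues, at 2964 and 1501 CPM.

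**Figure D2:**
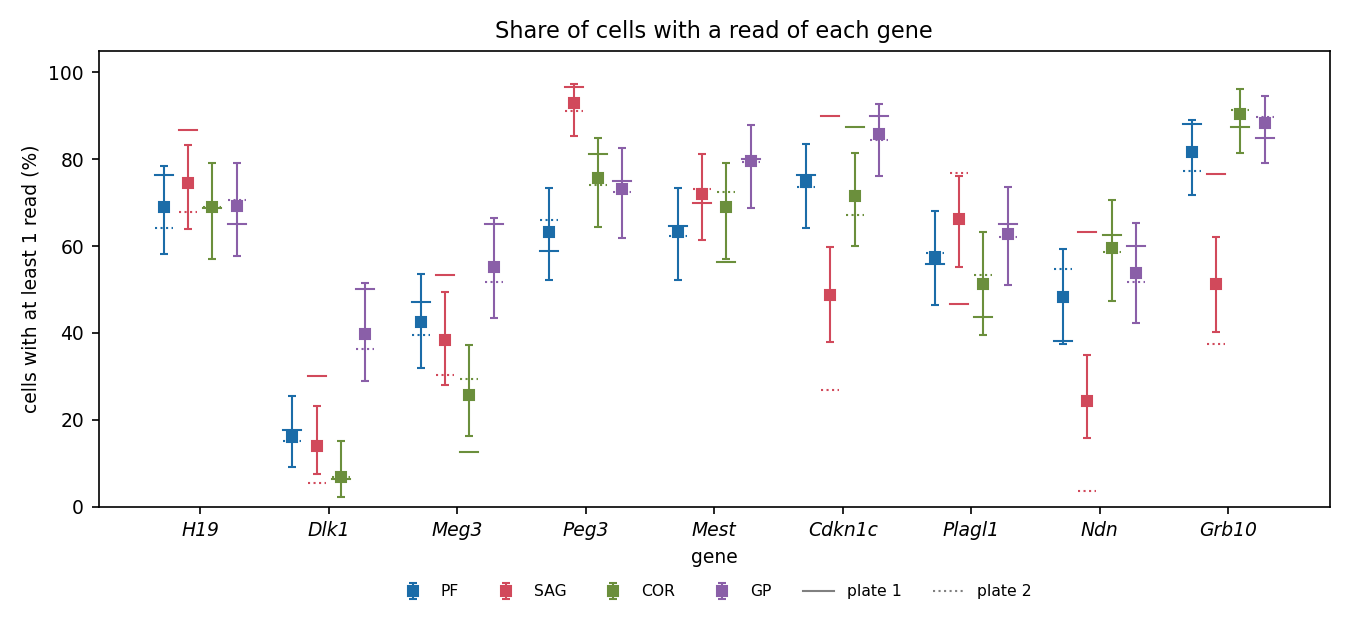
Percent of cells with at least 1 read of each gene in each tissue (squares, with exact 95% binomial intervals that cover counting of cells only), with short solid lines for plate 1 and short dotted lines for plate 2. Dlk1 reaches 39.7% in GP and stays at or below 16.1% in the sutures taken whole, while Ndn and Cdkn1c drop to 3.57% and 26.8% on SAG plate 2.

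Summed over genes by parental origin, the 4 maternally expressed genes gave 3299.8, 2904, 2647 and 3367 CPM (PF, SAG, COR, GP). The 5 paternally expressed genes gave 1699.9, 12019, 1309 and 4217 CPM. The paternally expressed sum was lower than the maternally expressed sum on all PF and COR plates and higher on both GP plates (5158 and 4019 against 4183 and 3196 CPM). Mest made up most of the GP sum. On SAG plate 1 the paternally expressed sum was 1514 against 4876 CPM and on plate 2 it was 19003 against 1592 CPM, with Peg3 as the main part.

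Per cell, a median of 7 of the 9 genes was read in GP, 5.5 in COR and 5 in both SAG and PF. The plate medians were 7 and 7 in GP, 5.5 and 5.5 in COR, 6 and 4.5 in SAG and 5 and 6 in PF, so both GP plates were above the other 6. Thinned to 100000 reads, the expected medians over cells that reached this depth were 6.91 in GP, 5.14 in COR, 4.95 in SAG and 5 in PF. At least 8 of the genes were read in 34.6% of GP cells (27 of 78), 25.3% of PF, 17.6% of COR and 11.6% of SAG cells. The SAG share was 30% on plate 1 (9 of 30 cells) and 1.79% on plate 2, so without plate 2 SAG stood between GP and PF. The GP plates (45% and 31.03%) overlapped the PF plates (35.3% and 18.9%), so the plates did not hold the order of GP, SAG and PF. None of the genes was read in 8 cells of 325. The number was higher in cells with more genes read. Over all cells the Pearson r with log10 of the genes read was 0.44, which is a description of cells that share plates and depth. Cells with 3 or fewer of the genes had a median of 1459 genes and those with 6 or more had 3111. Without SAG plate 2 these medians were 2221.5 and 3257, and r was 0.42.

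**Figure D3:**
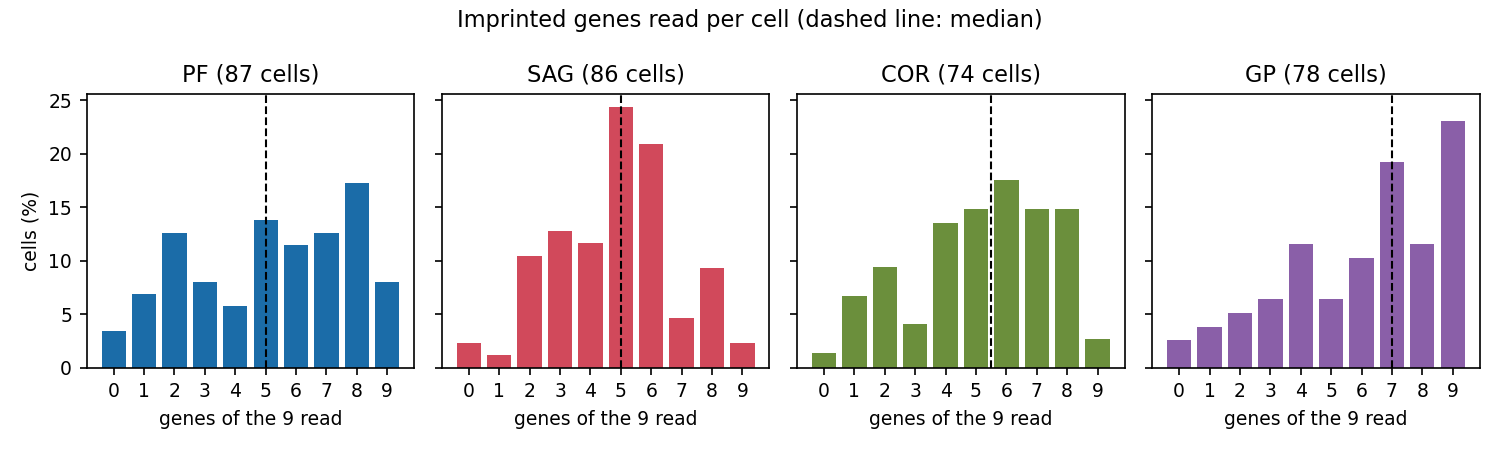
Percent of the cells of each tissue (vertical axis) by how many of the 9 genes were read in the cell (horizontal axis), with the median as a dashed line. GP has its highest bar at 9 of 9 genes and a median of 7, while the suture medians are 5 to 5.5.

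The genes tended to be read in the same cells. Co-detection was measured as the Mantel-Haenszel odds ratio, the odds of reading one gene in cells with the other over the odds in cells without it, with the 8 plates as strata. All 36 pairs of the 9 genes had an odds ratio of at least 2, with a median of 4.58 and a range from 2.03 for Dlk1 with Grb10 to 9.12 for H19 with Mest. Against the other 8025 genes read in at least 30 cells, the share with an odds ratio of at least 2 was 15.9% for H19, 11.8% for Dlk1, 11.4% for Meg3, 44.4% for Peg3, 20.2% for Mest, 22.7% for Cdkn1c, 21.3% for Plagl1, 21.7% for Ndn and 41.6% for Grb10. The median odds ratio with those genes ran from 1.14 for Dlk1 to 1.88 for Peg3, and the median with the 8 other imprinted genes from 2.84 for Grb10 to 5.90 for H19. Those medians were above 82.7% of the 8025 genes for Grb10 and above 96.9% to 98.98% for the other 8. When cells were also split at the plate median of genes read, the pair median was 4.16 and 34 of 36 pairs were at least 2. Without SAG plate 2 the pair median was 5.22 and all 36 pairs were at least 2.

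Within tissues the pair median was 7.27 in GP, 5.06 in COR, 4.29 in PF and 2.67 in SAG, and 36, 33, 33 and 23 of the 36 pairs were at least 2. By plate it ran from 3 on SAG plate 1 to 9 on GP plate 1, where 20 cells set the values. The strongest pairs were H19 with Mest, which shared 193 cells while 59 had neither, Dlk1 with Meg3 (8.90) and H19 with Cdkn1c (8.72). Dlk1 and Meg3 are neighbors on chromosome 12 that are active on opposite parental copies. Meg3 was read in 52 of the 62 cells with Dlk1 (83.9%) and in 30.4% of those without it. Rian, a further RNA of that domain, was read in 39.4% of cells with Meg3 and in 5.18% of cells without, an odds ratio of 11.5.

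**Figure D4:**
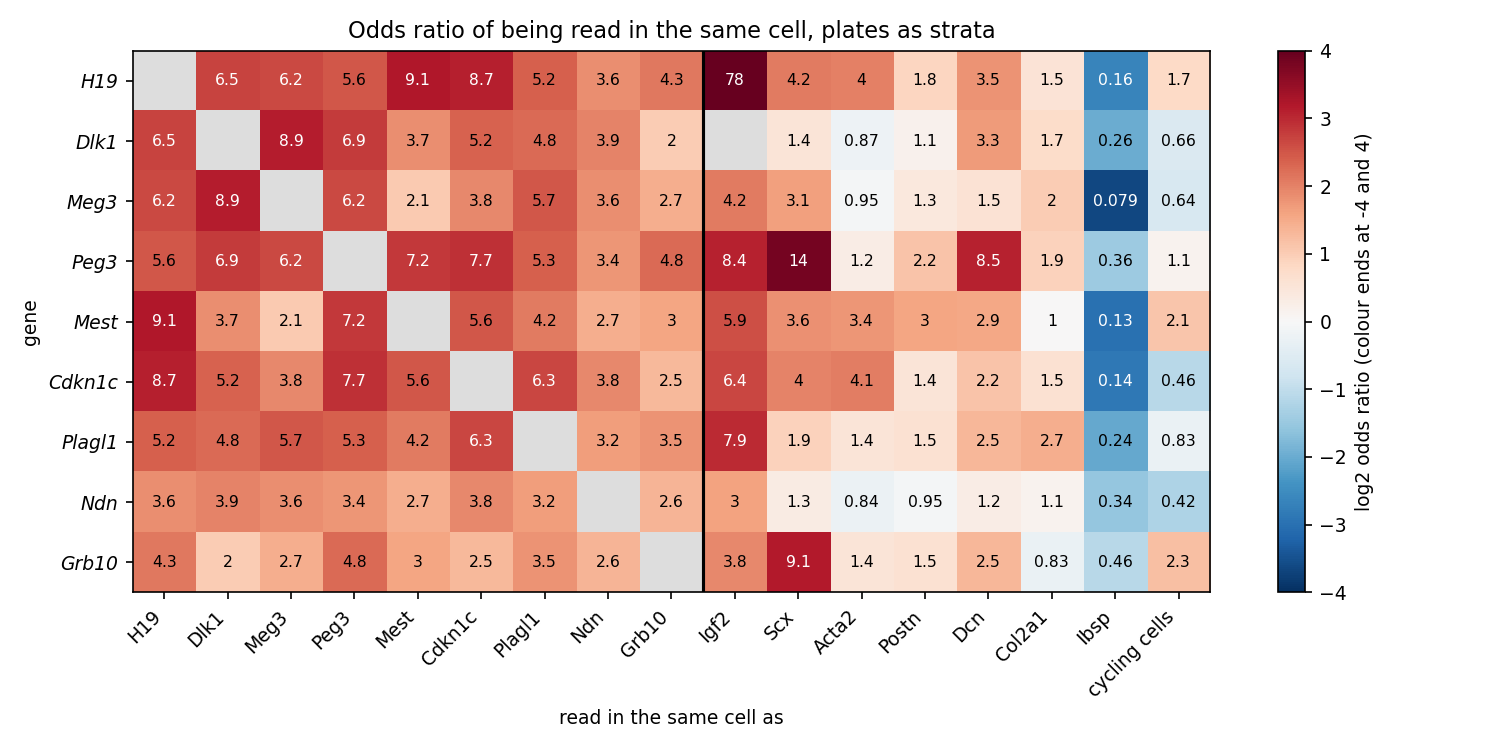
Odds ratio of being read in the same cell for each gene (rows) with the 8 others (left of the line) and with Igf2, marker genes and cycling cells (right of the line), plates as strata, red above 1 and blue below 1 on a log2 color scale. All pairs left of the line are at 2.03 or above, and all 9 values with Ibsp lie between 0.079 and 0.46. Dlk1 with Igf2 is grey because all 62 Dlk1 cells had Igf2 and the ratio has no finite value.

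H19 was read almost exclusively in cells with its neighbor Igf2, the fetal growth factor gene. Igf2 was read in 298 of 325 cells, and H19 was read in 228 of these (76.5%) and in 1 of the 27 cells without Igf2 (3.70%), an odds ratio of 77.9 where 32.2% of the 8024 genes compared with Igf2 reached at least 2. All 9 genes were read more often in cells with Igf2, with odds ratios of 3.05 for Ndn to 8.44 for Peg3 in the 7 others that had a finite value. With so few cells without Igf2, each of these ratios rests on 0 to 16 cells. The level of Igf2 was 5023 CPM in SAG (960.03 on plate 1 and 7724 on plate 2), 1163 in PF, 951 in GP and 751 in COR.

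The genes were read less often in cells with Ibsp, which encodes bone sialoprotein, a matrix protein of osteoblasts. Ibsp was read in 73 cells, and the odds ratio was 0.079 for Meg3, 0.13 for Mest, 0.14 for Cdkn1c, 0.16 for H19, 0.24 for Plagl1, 0.26 for Dlk1, 0.34 for Ndn, 0.36 for Peg3 and 0.46 for Grb10. Of 8024 other genes, 11.1% had an odds ratio with Ibsp of at most 0.5. Meg3 was read in 7 of 73 cells with Ibsp (9.59%) and in 125 of 252 without (49.6%), and Mest in 26 (35.6%) and 204 (80.95%). Grb10 was read in 75.3% and 77.8%, and its odds ratio was 0.54 without SAG plate 2. A median of 3 of the 9 genes was read in cells with Ibsp and 6 in cells without, and it was lower with Ibsp on all 8 plates. Genes read per cell were similar, with medians of 2764 and 2722.

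In level, Meg3 was at 3.91 CPM in cells with Ibsp and 90.02 CPM in those without, Cdkn1c at 301 and 1928, Plagl1 at 64.02 and 506, Peg3 at 290.06 and 2328, and H19 at 357 and 1079.8. The level was lower with Ibsp on all 8 plates for 7 genes, H19, Meg3, Peg3, Mest, Cdkn1c, Plagl1 and Ndn, on 7 plates for Dlk1 and on 6 for Grb10. The share of all genes with a lower level on as many plates was not computed, so these counts have no background beside them. Without SAG plate 2 the ratio of Peg3 went from -3.001 to -1.73 and that of Plagl1 from -2.96 to -2.22 on the log2 scale. The number of Ibsp cells per plate ran from 2 on GP plate 1 to 16 on GP plate 2. Some of the plate differences were small. On GP plate 2 the log2 ratio was -0.07 for Plagl1 and -0.08 for Ndn, and on COR plate 1 it was -0.05 for Peg3. On GP plate 1 the cells with Ibsp had a median of 1152 genes against 3069 in those without.

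**Figure D5:**
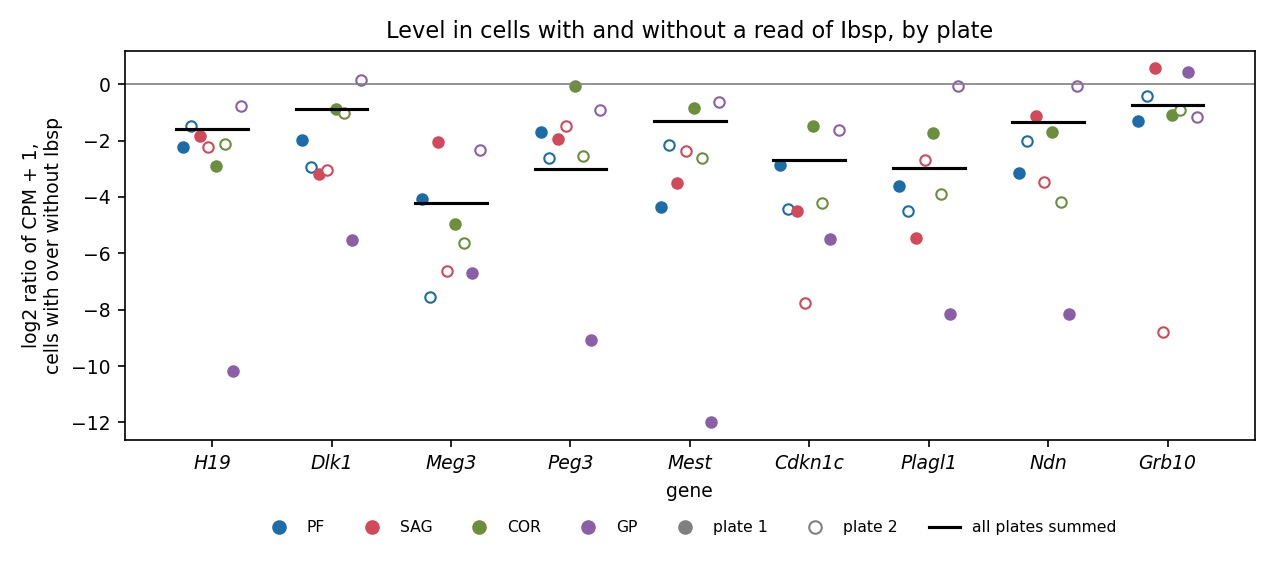
Log2 ratio of CPM + 1 in cells with a read of Ibsp over cells without (vertical axis) for each gene, one circle per plate (filled for plate 1, open for plate 2, colored by tissue) and a black bar for all plates summed. Almost all circles lie below 0, with Meg3 lowest at -4.21 in sum, and the plates with few cells, such as GP plate 1 with 2 Ibsp cells, scatter widely.

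Odds ratios with other lineage genes ranged more widely. Scx, a transcription factor of tendon, was read in 47 cells, and Peg3 was read in 45 of these, an odds ratio of 14.1, and Grb10 in 46, an odds ratio of 9.05. These ratios rest on the 2 and 1 Scx cells without the gene, and Peg3 and Grb10 also had the highest median odds ratios with genes in general, 1.88 and 1.82. For H19, Cdkn1c, Mest and Meg3 the ratio with Scx was 4.22, 3.96, 3.55 and 3.09, and for Ndn, Dlk1 and Plagl1 it was 1.26, 1.43 and 1.87. Acta2, a smooth muscle actin also made by fibroblasts, was read in 75 cells and went with Cdkn1c (4.09), H19 (4.05) and Mest (3.41) and not with Meg3 (0.95), Dlk1 (0.87) or Ndn (0.84). The cartilage collagen gene Col2a1 was read in 88 cells, with the highest ratios for Plagl1 (2.72, or 2.54 without SAG plate 2) and Meg3 (2.02, or 1.83) and values near 1 for Mest (1.00) and Grb10 (0.83). Of the 19 cells with at least 3 of 10 cell cycle genes, 12 had Cdkn1c, an odds ratio of 0.46, and 7 had Ndn, an odds ratio of 0.42. The ratio was 0.64 for Meg3, 0.66 for Dlk1 and 0.83 for Plagl1. It was above 1 for Peg3 (1.09), H19 (1.72), Mest (2.14) and Grb10 (2.32, read in 18 of the 19 cells). The share of all genes with such ratios was not computed for Scx, Acta2, Col2a1 or cycling cells. With 19 cells the values for cycling cells are imprecise.

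The genes whose level over the 325 cells was most like each of the 9 were ranked by Pearson r of log2(CPM+1) with each plate's mean subtracted, among 8034 genes. Cells share plates and depth, so r is a description. Il11ra1, the interleukin-11 receptor, was among the 5 most alike for 6 of the genes, with r from 0.38 with Ndn to 0.57 with Cdkn1c. Mfap4, a microfibril protein, was among them for 5 genes, up to 0.63 with Cdkn1c. The growth factor gene Igf1 was among them for Dlk1, Plagl1 and Ndn (0.40 to 0.44), Itm2a for Peg3, Mest and Cdkn1c, and Ogn, a small proteoglycan gene, for Peg3, Mest and Plagl1. Igf2 ranked first for H19 (0.62). Other imprinted genes of the 9 stood among the 5 for Dlk1 (Meg3, 0.39), Peg3 (Mest, 0.50) and Plagl1 (Cdkn1c, 0.45), and 4 to 6 of the 8 others stood among the 100 most alike for each gene. Grb10 stood apart. Its 5 most alike genes, P4ha3, Lum, Ikbip, Hspa5 and Tmem167, were shared with no other of the 9 and reached only 0.28 to 0.31. At the other end, chosen after the values were seen, the bone matrix gene Spp1 had the lowest or nearly the lowest r with every gene, from -0.60 with Cdkn1c to -0.22 with Grb10.

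Of 36 other imprinted genes fixed as a list, 25 had at least 10 CPM in some tissue. Between GP and COR, 4 of the 25 were higher in GP (among them Rian, Klf14 and Zdbf2; 7.02% of all genes) and 0 were higher in COR (6.39%), and between PF and COR, 4 were higher in PF (among them Rian, Zim1 and Copg2; 5.27%) and 0 in COR (6.6%). Rian, which lies beyond Meg3, was lower in COR than in PF and GP, at 1.24 and 3.99 CPM on the COR plates against 9.97 and 22.2 in PF and 35.02 and 15.7 in GP. On the SAG plates it was at 2.76 and 26.2 CPM and was not called against COR, and without plate 2 the log2 ratio of SAG to COR was -0.32. Klf14, a zinc finger gene close to Mest, was read in 20 of 78 GP cells, at 93.7 and 30.3 CPM on the GP plates, and in 0 of 86 SAG cells. Between SAG and PF, 3 were higher in SAG (among them Igf2r and Airn; 12.4%, so 3 of 25 is near the share of all genes) and 6 in PF (16.9%), and between SAG and COR, 6 were higher in SAG (12.5%) and 2 in COR (18.9%). Between SAG and GP, 2 were higher in SAG (12.4%) and 5 in GP (18.3%), and between PF and GP, 3 were higher in GP (8.61%) and 0 in PF (7.56%). Airn, an RNA antisense to Igf2r, was at 41.5 and 604 CPM on the SAG plates, so its SAG level also came mostly from plate 2, and without strand its reads may be those of Igf2r introns. Without SAG plate 2, 22 of the list were tested. Then 3 were higher in SAG than in PF (16.5%) and 4 lower (16.7%), 5 were higher than in COR (15.6%) and 1 lower (16.2%), and 3 were higher than in GP (16.7%) and 6 lower (17%).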

How the data were processed

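Reads per gene were counted in 360 sorted single cells (SMART-seq2, paired-end), and the authors deposited raw counts for 24015 genes in 8 tables, 1 for each plate. The submitters' processing notes name STAR 2.5.3a, HTSeq, Seurat 2.3.0, R 3.4.4 and mm9. Neither the annotation nor the strand setting is given in the sources used here. The protocol had no molecular identifiers, so counts are of reads after PCR. The table columns without a cell numbered 0. For 1 cell the labels disagreed on the tissue, and its title was followed. Well names recurred between plates (up to 58 between a pair of plates), and 0 pairs of cells had identical counts.

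Cells were grouped by the tissue and plate in their labels. Cells with at least 500 genes and 10000 reads were kept, which removed 35. They had been sorted singly, and no doublet caller was run. Reads other than Rn45s had medians per kept cell of 184673 (SAG) to 448803 (COR). CPM was computed from summed reads without Rn45s, with a pseudocount of 1 CPM in ratios and a minimum of 10 CPM in at least 1 tissue for a gene to be tested. Shares carry exact (Clopper-Pearson) 95% intervals. Shares and members per cell were also computed with cells thinned to 100000 reads other than Rn45s. Only cells that reached this depth entered, 70 for PF, 80 for SAG, 71 for COR and 67 for GP. The thinned values therefore cover fewer cells than the others. Co-detection and likeness used genes read in at least 30 cells. The scripts were tested on simulated data. Named were the 9 genes, the 5 genes most alike to each, and other listed imprinted genes read in at least 10% of the cells of a tissue. The genes, lists and rules were chosen with earlier results of these data known. Alternatives changed the scaling (with TMM from edgeR 4.0.16), the treatment of Rn45s, the pseudocount, the cell and gene filters, the plates, the read minimum and single cells. Python 3.11.15, NumPy 2.4.6, pandas 2.3.3, SciPy 1.17.1 and R 4.3.3 were used.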

Additional observations from a re-analysis of the deposited data

Results flagged for a closer look

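The 35 cells left out by the filter held reads of the same genes. In 14 of them at least 1 of the genes was read, and 7 of the 9 genes had a read, while Dlk1 and Meg3 had 0. Most of these reads came from the 8 left-out cells of SAG plate 2, where Peg3 was read in 6 cells (4743 reads), H19 in 5 (2210 reads), Mest in 5 (1549 reads) and Plagl1 in 2 (830 reads). No group held 4 to 10 samples, so no search for samples far from the others was made, and no difference between contrasts was tested.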

How the results depend on the processing

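Of the 16 calls between tissues with both plates, those of Meg3 between PF and COR, of Peg3 between SAG and COR, and of Dlk1 and Mest between GP and both PF and COR were made in all 12 settings run, and the others in 5 to 11 of 12. The settings without SAG plate 2 and without the cell whose labels conflict leave out SAG cells only. They cannot change a ratio among PF, COR and GP, so for those pairs they repeat the main result. Counting Rn45s in the totals reversed Dlk1 for PF over SAG to 0.41 and Meg3 for SAG over COR to -0.81. That setting moved the median log2 ratio of all genes to 1.92 for PF over SAG, -1.93 for SAG over COR and -1.81 for SAG over GP, from 0.30, -0.30 and -0.25. The share of calls higher in the first tissue went from 57.7% to 87.7%, from 39.9% to 10.3% and from 40.4% to 13.3%. With TMM scaling the medians were 0.39, -0.41 and -0.42. The cause of other changes was not tested.

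The number of the 9 genes called between PF and SAG, 2, was 4 with Rn45s counted, 4 on plate 1 alone, 5 on plate 2 alone, and 1 with a pseudocount of 10 CPM, with the mean of the cells' CPM or without the highest cell. Between PF and COR, 3 became 6 on plate 1 alone and 1 with the pseudocount of 10 CPM. Between SAG and COR, 4 became 7 on plate 2 alone and 2 with that pseudocount. Between SAG and GP, 3 became 6 on plate 2 alone, and between COR and GP, 2 became 7 on plate 1 alone. With 1 plate per tissue only the size of a ratio counts. The median number of genes read per cell in PF, 5, was 6 with the stricter cell filter and on plate 2 alone. In COR, 5.5 became 6 with the stricter filter, 5 without a filter or with at least 10 reads per gene, and 5.14 when thinned. In GP, 7 became 6 without a filter or with at least 10 reads, and 6.91 when thinned. The stricter filter left 0 cells of SAG plate 2. The pair median of odds ratios, 4.58, ran from 4.14 on plate 2 alone to 6.35 without a cell filter over its 8 alternatives. No paired analysis was possible because no result comes from a test. Plate 1 held fewer cells than plate 2 in every tissue, and median reads per cell other than Rn45s were lower on plate 1 in PF, COR and GP, so the plate number went with depth. Depth limits Dlk1 most, with 26 reads in COR.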
